A study of Mus musculus with 24 samples.

Results

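Mgarp, Tnfsf9, Rgs11, Prnd and Mab21l3 are 5 genes of little-known role in the kidney that were picked because their RNA was much higher in diabetic kidneys of mice fed enarodustat than in diabetic kidneys of mice on plain feed. They are 5 of 17736 genes tested, each read by 1 probe, and were found by matching the accession of each array probe to these symbols. The difference between enarodustat and diabetic kidneys is therefore given for them as a description, without a test, and so is the difference between enarodustat and sham kidneys, which uses the same enarodustat arrays. By the size of that difference Mgarp ranked 1, Tnfsf9 14, Prnd 32, Rgs11 44 and Mab21l3 73 among all genes tested, so only Mgarp lay among the 10 largest. The order among the 5 depends on how background was handled: with normexp correction of the median spot signals, as described with Mgarp, the differences were 1.497 for Mgarp, 1.19 for Rgs11, 0.80 for Mab21l3, 0.61 for Tnfsf9 and 0.30 for Prnd. In the ranking among all genes, made without normexp, 12 other genes stood between Mgarp and Tnfsf9. Slc16a3 was in place 2 and Ankrd37 in place 11, both known hypoxia-response genes.

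RNA of kidney tissue from male Crl:CD1(ICR) mice was hybridised to single-colour Agilent arrays, 1 array per sample. The enarodustat group (n = 9) was made diabetic with 90 mg/kg alloxan and ate feed that held 0.01% enarodustat. The DKD group, for diabetic kidney disease (n = 9), had the same alloxan and plain feed, and the sham group (n = 6) had vehicle and plain feed. Alloxan, a toxin of the insulin-producing beta cell, was given 3 days before the mice were grouped, the diabetic groups were matched on blood glucose and body weight, and kidneys were taken 16 days after grouping, so the model is one of early disease after a chemical loss of insulin. No sham mice with enarodustat were analysed here, so the drug is seen only in diabetic kidneys.

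Cells destroy the alpha subunits of hypoxia-inducible factor (HIF) once prolyl hydroxylases have tagged them, and enarodustat blocks these enzymes, so that HIF accumulates at normal oxygen, enters the nucleus and activates genes whose control regions carry a short core sequence. HIF targets in the kidney include erythropoietin, glycolytic enzymes, lactate export and the prolyl hydroxylase Egln3 itself. Mgarp, also called HUMMR, is a mitochondrial membrane protein that in neurons is raised by hypoxia and works with Miro and Trak proteins in moving mitochondria along axons. Tnfsf9 is the ligand of the T cell co-stimulatory receptor 4-1BB. Rgs11 is a member of the R7 group of regulators that, bound to Gnb5, speed up the shut-off of G proteins, and it is best known from the ON bipolar cells of the retina. Prnd encodes Doppel, a relative of the prion protein that is known from testis and from blood vessel endothelium. Mab21l3 belongs to the Mab21 family and has been studied mainly in frog embryos, where it takes part in cell fate in the skin.

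RefSeq promoter windows (GRCm38.p6, 250 bases before to 50 after a transcript start) were matched for 3 of the 5 genes, Mgarp, Prnd and Mab21l3, and are shown because these genes were picked for moving together with a drug that acts on HIF. Each is written 5′ to 3′ on the strand of its gene, with the HIF core in capitals. The core was searched as ACGTG or GCGTG on both strands. The windows are Mgarp at chr3:51396498-51396797, minus strand, Prnd at chr2:131950611-131950910, plus strand, and Mab21l3 at chr3:101836174-101836473, minus strand.
Mgarp: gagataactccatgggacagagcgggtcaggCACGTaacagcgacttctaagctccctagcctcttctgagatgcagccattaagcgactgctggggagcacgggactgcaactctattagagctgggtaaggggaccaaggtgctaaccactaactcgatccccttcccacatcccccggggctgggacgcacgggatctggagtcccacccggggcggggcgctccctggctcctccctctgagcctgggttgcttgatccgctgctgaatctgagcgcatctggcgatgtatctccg
Prnd: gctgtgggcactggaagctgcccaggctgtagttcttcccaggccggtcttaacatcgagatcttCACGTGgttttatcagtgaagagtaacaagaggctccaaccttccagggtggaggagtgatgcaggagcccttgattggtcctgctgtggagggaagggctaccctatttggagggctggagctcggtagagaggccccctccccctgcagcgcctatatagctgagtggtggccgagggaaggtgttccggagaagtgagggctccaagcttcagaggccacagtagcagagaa
Mab21l3: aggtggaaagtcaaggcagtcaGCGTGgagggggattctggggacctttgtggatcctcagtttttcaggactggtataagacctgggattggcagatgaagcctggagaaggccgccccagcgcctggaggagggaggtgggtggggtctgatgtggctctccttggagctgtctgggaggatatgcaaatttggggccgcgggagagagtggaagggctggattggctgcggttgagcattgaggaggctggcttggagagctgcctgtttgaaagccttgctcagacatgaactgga
In the Mgarp window the core stood at bases 32 to 36 of the window, 219 bases upstream of the start, and was read on the other strand. In the Prnd window 2 overlapping cores, 1 on each strand, filled bases 66 to 71, and a later Prnd start listed by RefSeq had none in its own window. The Mab21l3 window held the GCGTG form at bases 23 to 27, 228 bases upstream. Of all 32851 mouse promoter windows of this length 43.8% held at least 1 such core, so a match is common and is only a description of these letters.

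Levels below are log2 processed spot signals, from which the 75th percentile of each array was subtracted, so a level of 0 means a signal equal to that percentile and a difference of 1 is a doubling. Levels of different genes come from different probes and were not set against each other. The exception is the summed level of a marker list, which adds its probes, so bright probes weigh most in it. The arrays filled 3 slides, each holding all groups, but all enarodustat arrays lay in the second row of a slide, all sham arrays in the first, and the DKD arrays in both (6 in the first, 3 in the second). Row values are therefore given where they moved a result. All 16 kidney markers on the list (such as Umod and Slc22a6) were detected, and 0 spots were saturated. In RNA of bulk tissue, a change in the number of cells of one type and a change in RNA per cell cannot be told apart. The series text counts its groups in mice, so each sample was taken as 1 mouse, and the spread below is that between mice. Where groups are said not to overlap, this only describes the gene. How many of all genes tested had groups that did not overlap was not counted.

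Mgarp was the gene with the largest difference between enarodustat and DKD kidneys of all 17736 tested. In enarodustat kidneys its level had a lowest value of -2.06, a median of -0.48 and a highest value of 0.35. In DKD kidneys the lowest was -4.88, the median -4.05 and the highest -3.12. In sham kidneys the lowest was -6.39, the median -5.63 and the highest -3.49. The lowest enarodustat mouse stood 1.06 above the highest DKD mouse, while DKD and sham mice overlapped, since sham replicate 4 lay above 8 of the 9 DKD mice. The means were -0.68 ± 0.74 in enarodustat, -4.15 ± 0.58 in DKD and -5.33 ± 1.11 in sham kidneys (SD, n = 9, 9 and 6). The enarodustat mean was thus 3.47 ± 0.35 (SE) above DKD, which is 11.1-fold, and 4.65 ± 0.40 above sham. Mgarp was a dim gene without the drug. Its median processed signal was 190 units in enarodustat kidneys, 14.04 in DKD kidneys and 5.42 in sham kidneys, and 3 of the 6 sham arrays were not well above background. The size of the difference depended on how background was handled: with normexp correction of the median spot signals and an offset of 50, which pulls dim values together, enarodustat was 1.497 above DKD. Within slides 1, 2 and 3 the difference was 3.88, 3.81 and 2.72, and against the 3 DKD arrays of the second row alone it was 2.95.

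Tnfsf9 was higher in all enarodustat kidneys than in any DKD or sham kidney. Enarodustat kidneys had a lowest level of -3.02, a median of -2.40 and a highest of -2.05. DKD kidneys had a lowest level of -5.15, a median of -4.41 and a highest of -3.92. Sham kidneys had a lowest level of -5.33, a median of -4.66 and a highest of -4.07. All enarodustat mice lay above all DKD mice by at least 0.90 and above all sham mice by at least 1.05, whereas DKD and sham mice overlapped over most of their range. The means were -2.49 ± 0.33 in enarodustat, -4.48 ± 0.34 in DKD and -4.69 ± 0.41 in sham kidneys (SD). Enarodustat exceeded DKD by 1.99 ± 0.16 (SE), a 3.96-fold higher signal, and sham by 2.20 ± 0.18. Tnfsf9 was well above background on all arrays but dim without the drug. Its median processed signal was 47.84 units in enarodustat, 11.2 in DKD and 9.77 in sham kidneys. The difference from DKD was 2.32, 2.09 and 1.56 within the 3 slides and 2.00 against the DKD arrays of the same row, but 0.61 with normexp on the median signals.

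Rgs11 was stepped across the groups, with 3 sets of values that did not overlap. Its enarodustat levels had a lowest value of 1.11, a median of 1.71 and a highest of 2.15. The DKD levels had a lowest value of -0.16, a median of 0.27 and a highest of 0.75. The sham levels had a lowest value of -1.17, a median of -0.76 and a highest of -0.27. Every enarodustat mouse was thus above every DKD mouse, and every DKD mouse above every sham mouse, with gaps of 0.36 and 0.11 between the groups. The means were 1.64 ± 0.33 in enarodustat, 0.31 ± 0.31 in DKD and -0.71 ± 0.32 in sham kidneys (SD), so enarodustat was 1.34 ± 0.15 (SE) above DKD and 2.35 ± 0.17 above sham. Rgs11 was well above background on all 24 arrays, and it moved least with the handling of background, at 1.19 above DKD with normexp. Against the DKD arrays of the second row the difference was larger, at 1.67.

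Prnd stood lowest in DKD kidneys, so that the order of the group means was enarodustat, sham, DKD. The enarodustat levels had a lowest value of -3.83, a median of -3.41 and a highest of -2.49. The DKD levels had a lowest value of -6.29, a median of -4.75 and a highest of -3.35. In sham kidneys the lowest was -4.44, the median -4.14 and the highest -3.56. All 3 groups overlapped: DKD replicate 6 lay within the enarodustat range, and 7 of 9 DKD mice lay below every sham mouse. The means were -3.30 ± 0.50 in enarodustat, -4.84 ± 0.81 in DKD and -4.06 ± 0.38 in sham kidneys (SD). Enarodustat was 1.54 ± 0.28 (SE) above DKD and 0.77 ± 0.31 above sham. Prnd was well above background on 7 of the 9 DKD arrays and on all arrays of the other groups. With normexp on the median signals its difference from DKD was 0.30, and within the 3 slides it was 1.80, 1.01 and 1.81.

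Mab21l3 differed most between diabetic and sham kidneys and spread widely within both diabetic groups. The enarodustat levels had a lowest value of -1.04, a median of -0.30 and a highest of 1.07. The DKD levels had a lowest value of -2.56, a median of -1.23 and a highest of 0.40. In sham kidneys the values kept to a narrow range, with a lowest of -3.67, a median of -3.13 and a highest of -2.93. The diabetic groups overlapped, since only 3 of 9 enarodustat mice lay above the highest DKD mouse, and both groups lay wholly above sham. The means were -0.13 ± 0.75 in enarodustat, -1.27 ± 0.89 in DKD and -3.19 ± 0.28 in sham kidneys (SD). Enarodustat was 1.14 ± 0.33 (SE) above DKD and 3.05 ± 0.37 above sham. With only the DKD arrays of the second row, the difference from DKD was 0.57. DKD replicate 3, one of those arrays, had the highest Mab21l3 level of its group and the lowest Prnd, Rgs11 and Tnfsf9 levels.

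**Figure D1:**
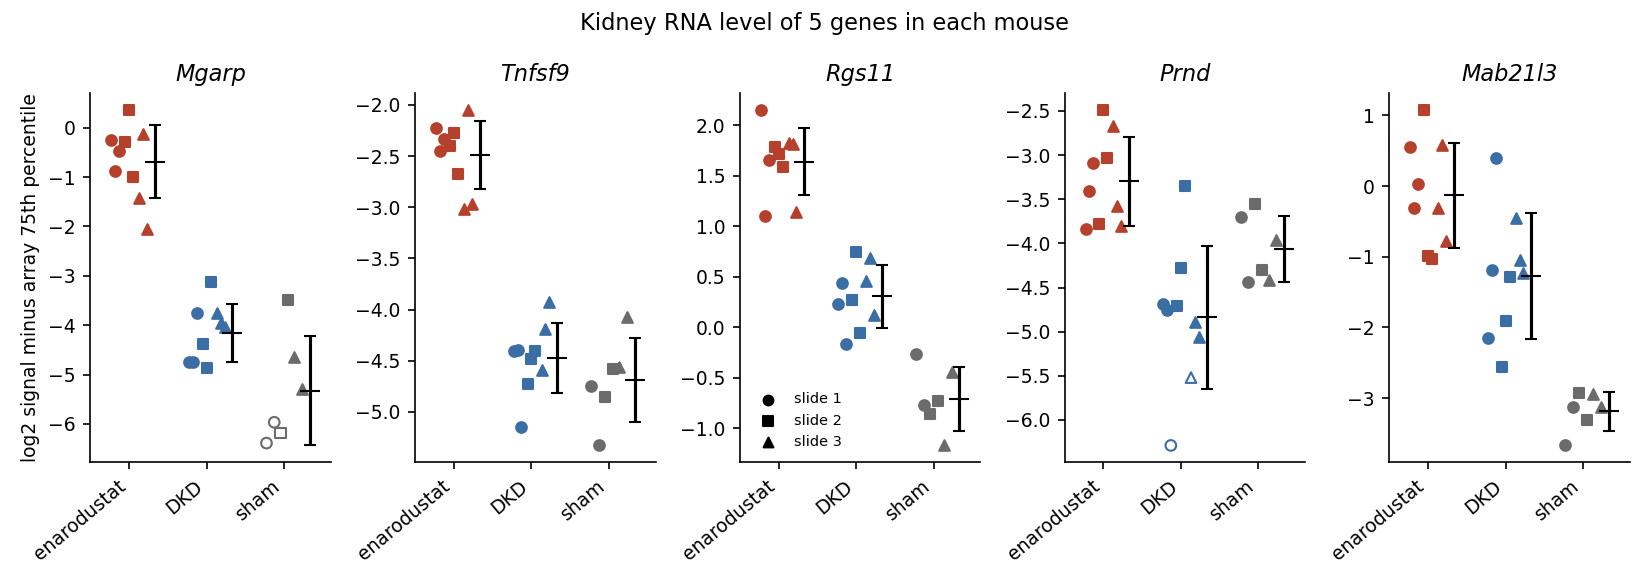
Level of each gene (y axis, log2 signal relative to the array's 75th percentile, with its own range in each panel) in every mouse, by group (x axis: enarodustat, DKD, sham). Symbols give the slide, open symbols mark spots not well above background, and the bar beside each group is the mean with 1 SD (n = 9, 9 and 6). Mgarp, Tnfsf9 and Rgs11 values of enarodustat mice lie above all DKD values, while Prnd and Mab21l3 overlap.

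At a p under 0.05 in limma after Benjamini-Hochberg adjustment over all genes, 127 genes (0.716% of those tested) differed between enarodustat and DKD kidneys, 108 higher (0.609%) and 19 lower (0.107%). Mgarp, Tnfsf9, Rgs11 and Prnd were among the 108 and Mab21l3 was not. Since this contrast chose the genes, the count says how they were picked and no more. The 127 became 20 when the fit held a term for slide row, 11 in the second row alone, 71 without enarodustat replicate 8, and 82 to 84 without enarodustat replicate 4, 5 or 6 or DKD replicate 7.

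The comparison of DKD with sham kidneys asks whether diabetes moved these genes in mice without the drug. It did not enter their choice, although it uses the same DKD arrays. Picking genes for a high enarodustat minus DKD difference favours low DKD values, which would pull DKD minus sham down. A negative difference, as for Prnd, has the direction of that pull, and a rise has the other direction. Rgs11 and Mab21l3 rose with diabetes, and Mgarp, Tnfsf9 and Prnd did not pass the test, so 2 of the 5 genes rose and 0 fell. Over all genes 11.6% passed in this comparison, 5.47% higher and 6.13% lower. Mab21l3 rose by 1.92 ± 0.37 (SE; limma, adjusted p = 0.00134), which is 3.77-fold and place 22 of 17736 from the top. All 9 DKD mice were above all 6 sham mice. Rgs11 rose by 1.01 ± 0.17 (limma, adjusted p = 0.000335), or 2.02-fold, with all 9 DKD mice above all 6 sham mice. Both calls held with slide row as a term, at 1.63 (adjusted p = 0.00799) for Mab21l3 and 1.18 (adjusted p = 0.000168) for Rgs11. Within single slides, which hold 3 DKD and 2 sham arrays each, Mab21l3 was higher in DKD by 2.42, 1.21 and 2.12 and Rgs11 by 0.69, 1.12 and 1.23, with no call there. Over the same arrays 2 kidney markers rose and 2 fell of 16: Aqp2, the collecting duct water channel, was higher by 0.91 (adjusted p = 0.000165) and Slc12a1, the loop of Henle salt transporter, by 0.41 (adjusted p = 0.00564), while Slc22a6, a proximal tubule anion transporter, fell by 0.75 (adjusted p = 0.000305) and Umod, the uromodulin gene of the loop, fell by 0.49 (adjusted p = 0.00342). The part of these marker shifts in the values of Mab21l3 and Rgs11 was not tested.

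Mgarp was 1.18 ± 0.40 (SE) higher in DKD than in sham kidneys, with a limma adjusted p of 0.0556. Leaving out sham replicate 4, the sham mouse with the highest Mgarp level, gave 1.55 with an adjusted p of 0.00818, and the first slide row alone gave 0.92 with an adjusted p of 0.2. With normexp the difference was 0.12 (adjusted p = 0.825). Prnd had a DKD minus sham difference of -0.77 ± 0.31 (limma adjusted p = 0.111). Without DKD replicate 6, the DKD mouse with the highest Prnd level, it was -0.96 with an adjusted p of 0.0221, and within the first slide row -0.74 with an adjusted p of 0.0421. Leaving out each mouse in turn gave limma adjusted p of 0.0221 to 0.236, and 23 of those 24 fits left Prnd not passing. Prnd was dim, with a median signal of 8.53 units in DKD kidneys. Normexp, which pulls dim values together, made its differences from enarodustat smaller. Tnfsf9 had a difference of 0.21 ± 0.18 (limma adjusted p = 0.519), with 7 of 9 DKD mice above the sham mean.

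**Figure D2:**
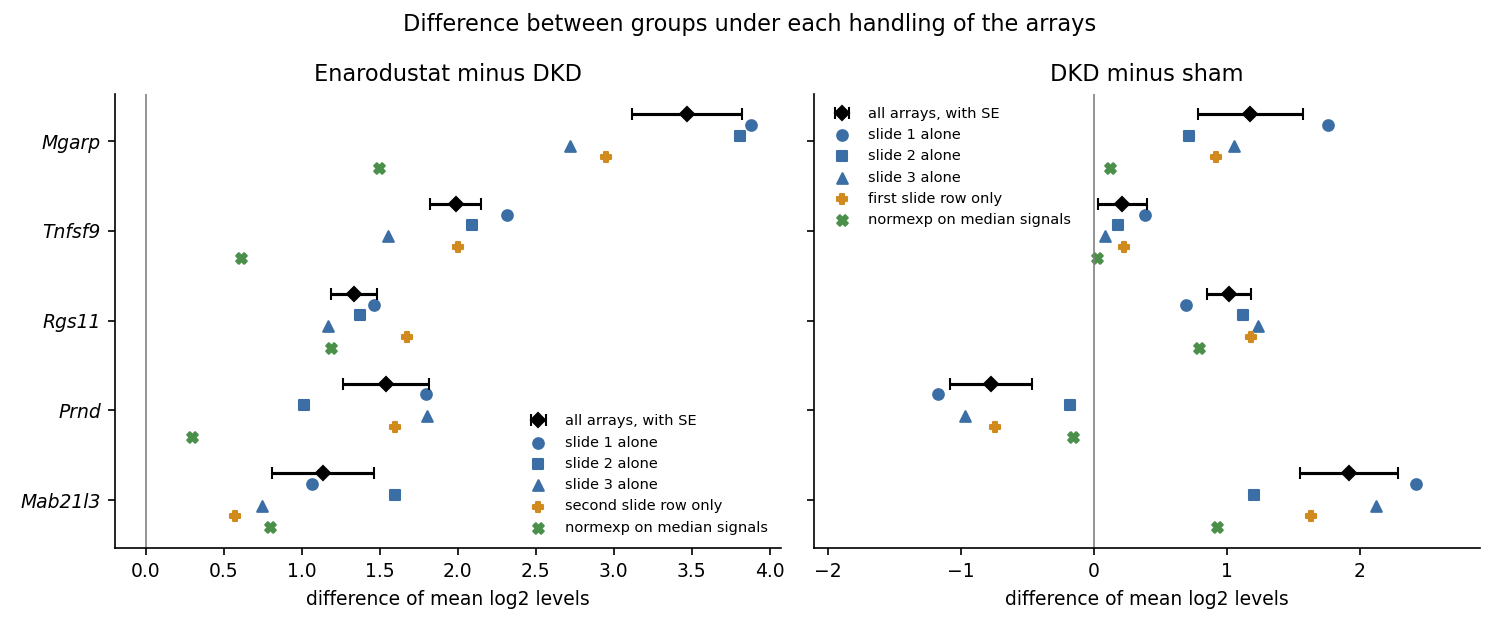
Difference of mean log2 levels (x axis) for each gene (y axis), enarodustat minus DKD at left and DKD minus sham at right. Diamonds use all arrays with 1 SE; the other symbols use 1 slide, 1 slide row, or normexp on the median signals. Normexp brings Mgarp, Tnfsf9 and Prnd closest to 0, at 1.497, 0.608 and 0.299 above DKD, and leaves Rgs11 at 1.19.

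Within a group, mice could also be compared by how the genes varied together, which the choice of the genes did not use. Among enarodustat mice Mgarp and Tnfsf9 varied together, and no other pair passed. Their Pearson r over 9 mice was 0.887 (exact permutation p = 0.00126, adjusted p = 0.0253 over 20 relations) and their Spearman correlation 0.917 (exact permutation p = 0.00131, adjusted p = 0.0262). Without the 2 mice farthest from the Mgarp median r was 0.718, and with values centred within slides it was 0.912. The permutation of the centred values also swapped mice across slides, which such centring does not allow, so no p is given for it. Enarodustat replicates 7 and 9, both on slide 3, had the lowest levels of both genes. Replicate 9 also had the lowest unscaled signals, 59.0 for Mgarp and 31.44 for Tnfsf9. Replicate 7 had the largest 75th percentile of all arrays, 388, and its unscaled Tnfsf9 signal, 47.84, was the group median. Replicate 5 had the smallest percentile, 187, and the highest Mgarp level. The part of this shared scaling in r was not tested. Among DKD mice the same pair had r = -0.100 (exact permutation, adjusted p = 0.900), and a difference between the groups was not tested. With normexp on the median signals 0 pairs passed.

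Over the 10 pairs, r in enarodustat mice ran from -0.598 to 0.887 with a median of 0.394, and 8 were above 0. In DKD mice r ran from -0.638 to 0.544 with a median of -0.04, and 5 were above 0. Prnd and Mab21l3 formed the most negative pair in both groups, at -0.598 in enarodustat mice and -0.638 in DKD mice, neither of which passed (exact permutation, adjusted p = 0.422 each). All genes of a mouse share 1 array and its scaling, and r was taken within each group and not over pooled groups.

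**Figure D3:**
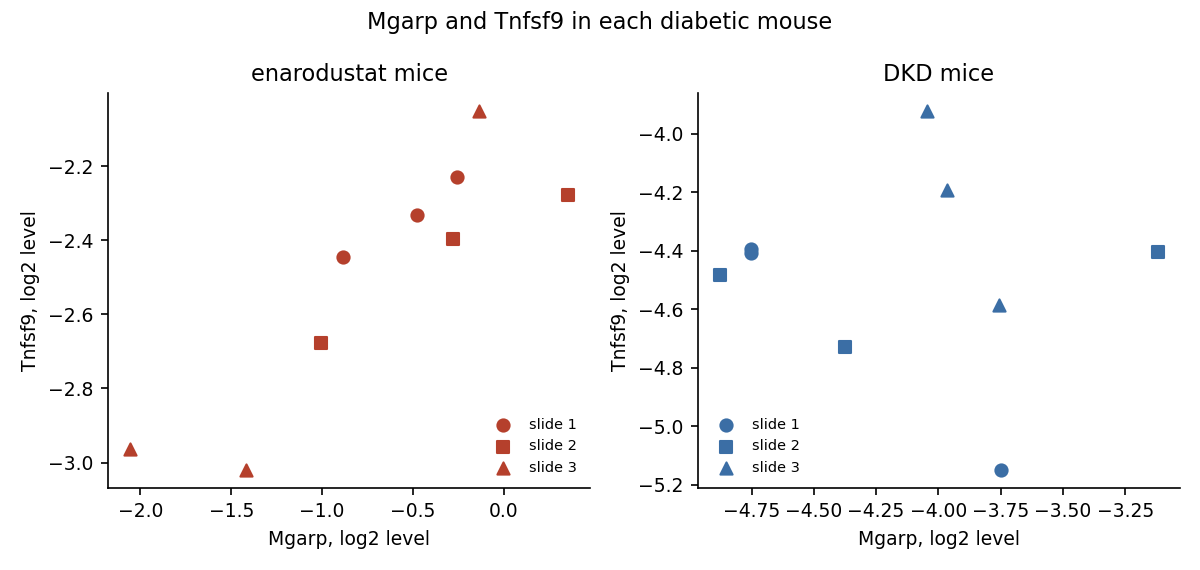
Tnfsf9 level (y axis) against Mgarp level (x axis), both as scaled log2 signals, in each of 9 enarodustat mice (left) and 9 DKD mice (right), with symbols for slides. Points rise together in enarodustat mice (r = 0.887) and show no such order in DKD mice (r = -0.100).

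The genes whose level was most like each of the 5 over all 24 arrays were picked by Pearson r, a description that carries the differences between groups. Mgarp was most like Slc16a3, the lactate exporter MCT4 (r = 0.952), Ankrd37, an ankyrin repeat protein induced by hypoxia (r = 0.946), and Pfkl, the liver phosphofructokinase (r = 0.913). Tnfsf9 was most like Slc16a3 (r = 0.949), Gm11110 (r = 0.933) and Ankrd37 (r = 0.930). Rgs11 was most like Pfkl (r = 0.937), Slc16a3 (r = 0.933) and the fibroblast growth factor family gene Fgf11 (r = 0.926). Since the 5 genes were picked for their rise with the drug, other genes with a large rise come out near them. Prnd had another set, Pcdhga9 of the gamma protocadherins (r = 0.855), Emid1, a matrix protein gene (r = 0.834), and Marcks, a substrate of protein kinase C (r = 0.828). Mab21l3 was most like the enolase genes Eno1b (r = 0.879) and Eno1 (r = 0.869), near-identical copies whose probes may share signal, and the orphan receptor gene Gpr85 (r = 0.869). Of these 15 places, filled by 11 different genes, 13 went to genes that passed enarodustat against DKD. Over the 9 enarodustat arrays alone the nearest genes were others, with r of 0.894 to 0.962, and 0 of those 15 passed that contrast. The first for each was Gsg1l for Mgarp, Dab1 for Tnfsf9, 4930426D05Rik for Rgs11, Rfesd for Prnd and Epha1 for Mab21l3. These are the highest r picked from very many genes over few arrays. How high r would come out from such picking alone was not computed.

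Known HIF targets give the scale of the response to the drug. Among 19 targets of glucose metabolism 11 rose with enarodustat, 0 fell and 8 did not pass, with a median difference of 0.47, against 0.005 over all genes. Slc16a3 was higher by 3.03 ± 0.17 (limma, adjusted p = 4.27e-11), with mean levels of 1.20 in enarodustat, -1.83 in DKD and -3.12 in sham kidneys. Hexokinase Hk2 was higher by 1.84 ± 0.33 (adjusted p = 0.00524), and the phosphofructokinases Pfkl and Pfkp by 1.17 ± 0.10 (adjusted p = 2.72e-07) and 1.13 ± 0.14 (adjusted p = 7.43e-05). Hk2 was well above background on 9 of 9 enarodustat, 3 of 9 DKD and 4 of 6 sham arrays. Signals near background thus limit the size of its difference. The aldolase Aldoc was higher by 0.97 ± 0.12 (adjusted p = 7.06e-05) and Pfkfb3, which makes the activator of phosphofructokinase, by 0.64 ± 0.12 (adjusted p = 0.00701). Pdk1, which holds pyruvate back from mitochondria, had a difference of 1.02 ± 0.34 with an adjusted p of 0.206, and its 4 probes ran from 0.016 to 1.104.

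Of 38 tested HIF targets outside glucose metabolism 11 rose, 0 fell and 27 did not pass, with a median of 0.34. Ankrd37 rose by 2.05 ± 0.17 (limma, adjusted p = 7.25e-08) and the prolyl hydroxylase Egln3 by 1.48 ± 0.21 (adjusted p = 0.000244). The stress gene Ddit4 rose by 1.01 ± 0.22 (adjusted p = 0.032), the collagen prolyl hydroxylase P4ha1 by 0.87 ± 0.11 (adjusted p = 7.06e-05), the vasodilator peptide gene Adm by 0.83 ± 0.20 (adjusted p = 0.0484) and the secreted glycoprotein gene Stc2 by 0.82 ± 0.17 (adjusted p = 0.0188). Vegfa, the endothelial growth factor, had a difference of 0.40 ± 0.11 (adjusted p = 0.0892; 4 probes from 0.26 to 0.63), the mitophagy receptor Bnip3 0.41 ± 0.18 (adjusted p = 0.411) and the carbonic anhydrase Car9 0.23 ± 0.39 (adjusted p = 0.923). Erythropoietin (Epo) was below the filter on dim probes and was not tested. With slide row as a term 5 of the glucose list and 1 of the other list rose, and with the second row alone 3 and 1, with medians of 0.30 and 0.285 in both.

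**Figure D4:**
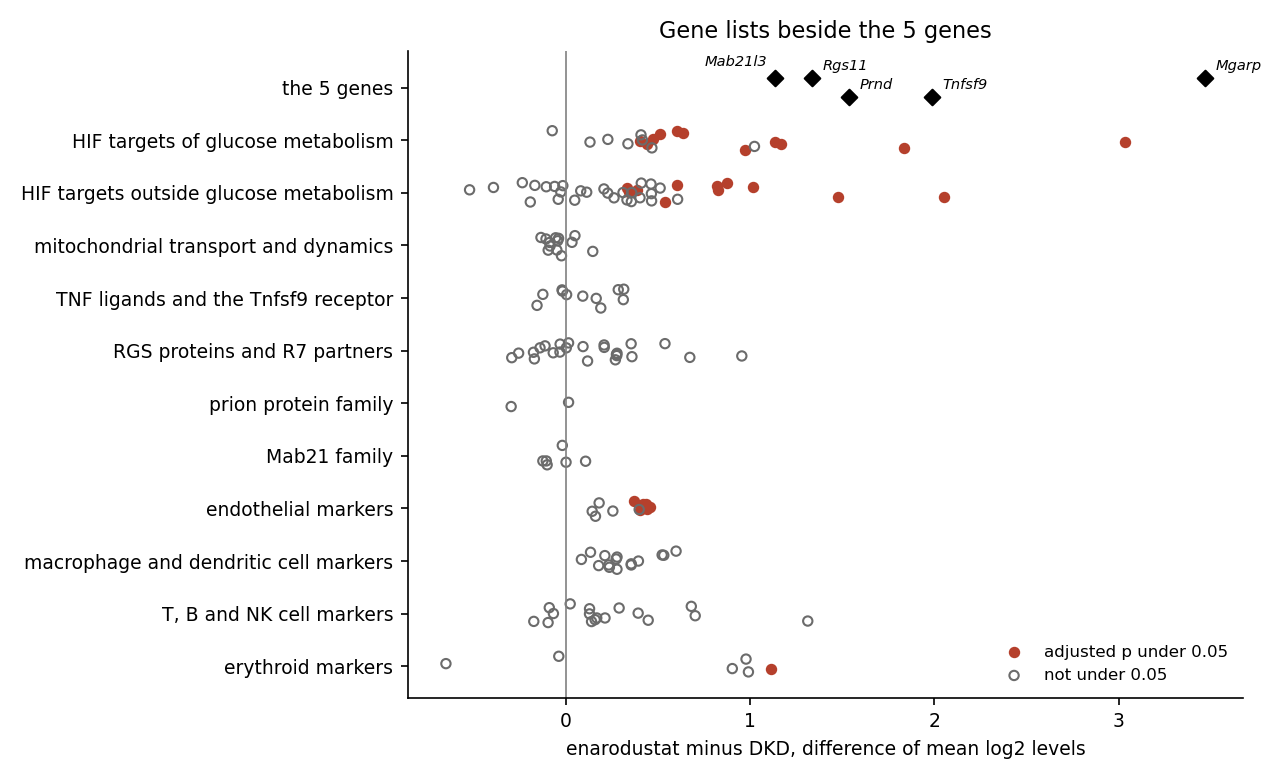
Difference of mean log2 levels, enarodustat minus DKD (x axis), for the 5 genes (diamonds) and for every tested gene of 11 lists (y axis; vertical scatter is for legibility). Filled points passed at a limma adjusted p under 0.05, as 0.716% of all genes did. HIF targets and endothelial markers hold most of them, and the lists of known partners of the 5 genes hold 0.

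The tested partners and relatives of the 5 genes did not pass with the drug. Over all genes 0.716% passed this contrast, so 0 in lists this short is near that share and says little about the partners. Of 13 genes of mitochondrial transport and dynamics, the setting in which Mgarp is known, 0 passed in either direction between enarodustat and DKD, with differences of -0.13 to 0.15. The Miro genes Rhot1 and Rhot2 had differences of -0.08 and -0.10, and the adaptor genes Trak1 and Trak2 of -0.05 and -0.13. Against sham, DKD kidneys had 0 of 13 past the test, where 11.6% of all genes passed. The 4 partner genes were plainly detected, with enarodustat, DKD and sham means of 2.44, 2.52 and 2.38 for Rhot1 and 1.36, 1.41 and 1.15 for Trak1.

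Tnfrsf9, the receptor of Tnfsf9, was below the filter on dim probes, as were 7 of the other TNF ligand genes on the list, among them Cd70, Fasl and Tnfsf4. The 11 genes of that list that were tested had 0 passes in both comparisons, with enarodustat minus DKD differences of -0.16 to 0.31. Tnfsf9 is known from antigen-presenting cells, so markers of immune cells are given beside it. All 15 tested macrophage and dendritic cell markers had enarodustat minus DKD differences above 0, from 0.085 to 0.60 with a median of 0.28, and 0 passed. The largest was that of Itgam, whose other probe had the opposite sign, at -0.24. Itgam was also the brightest of these markers and weighs most in their sum. The log2 of their summed level ran from 5.15 to 6.50 in enarodustat, 4.69 to 5.89 in DKD and 5.58 to 5.97 in sham kidneys, so the groups overlapped. Of 17 tested T, B and NK cell markers 0 passed between enarodustat and DKD, and 5 fell in DKD against sham, among them Gzma by 1.26 (adjusted p = 9.47e-05) and Cd79b by 1.14 (adjusted p = 0.00116). Their part in the Tnfsf9 values was not tested.

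Of 24 tested RGS genes and R7 partners 0 passed between enarodustat and DKD, with differences of -0.29 to 0.96 and a median of 0.11. The other R7 members had differences of 0.35 ± 0.13 for Rgs6 (adjusted p = 0.294), -0.29 ± 0.33 for Rgs7 (adjusted p = 0.861) and 0.28 ± 0.21 for Rgs9 (adjusted p = 0.713), whose 4 probes ran from -0.14 to 0.28. Gnb5, the obligate partner of the R7 group, had a difference of -0.14 ± 0.11 (adjusted p = 0.741). Between DKD and sham kidneys Rgs6 rose by 0.49 (limma, adjusted p = 0.0321), Rgs10 fell by 0.47 (adjusted p = 0.0106) and the other 22 did not pass. Of the neuronal and retinal markers, in whose tissue Rgs11 is best known, 0 of 7 tested passed in either comparison.

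Prnp, the prion protein gene, had an enarodustat minus DKD difference of -0.30 ± 0.13 (adjusted p = 0.419), and its other probe, with the opposite sign, gave 0.10. The shadow of prion protein gene Sprn had a difference of 0.02. Since Prnd is known from endothelium, endothelial markers are given beside it: 7 of 12 rose with enarodustat, 0 fell and 5 did not pass, with differences of 0.14 to 0.46 and a median of 0.40. Cdh5, the endothelial cadherin, rose by 0.43 ± 0.08 (limma, adjusted p = 0.0103) and Plvap, a protein of endothelial diaphragms, by 0.42 ± 0.08 (adjusted p = 0.0139). The log2 of the summed endothelial level ran from 6.08 to 6.56 in enarodustat, 5.67 to 6.04 in DKD and 5.76 to 5.98 in sham kidneys. Enarodustat mice thus lay above all others by this sum, but with slide row as a term 0 of 12 passed, at a median of 0.33. Against sham 1 of the 12, Tek, rose in DKD kidneys by 0.27 (adjusted p = 0.0334), and the endothelial sums of DKD and sham kidneys overlapped, with medians of 5.86 and 5.85. The part of the endothelial shift in the Prnd values was not tested.

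Of 6 tested relatives of Mab21l3 0 passed between enarodustat and DKD, with differences of -0.12 to 0.11. Between DKD and sham kidneys Mab21l4 rose by 1.59 (limma, adjusted p = 0.000367), with mean levels of -1.89 in enarodustat, -1.88 in DKD and -3.47 in sham kidneys, and the other 5 did not pass. Mab21l3 and Mab21l4 were thus both higher in diabetic kidneys, and Mab21l4 differed between enarodustat and DKD by -0.02 ± 0.23.

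Erythroid markers also differed between the groups. Of 6 tested erythroid markers 1 rose with enarodustat and 5 did not pass: the beta globin gene Hbb-bt rose by 1.11 ± 0.26 (limma, adjusted p = 0.0422) and the alpha globin genes Hba-a1 and Hba-a2, near-identical copies, had differences of 0.99 and 0.98 (adjusted p = 0.0643 each). The other 3 had differences of 0.90 for the heme synthesis gene Alas2 (adjusted p = 0.151), -0.04 for Slc4a1, an anion exchanger also known from collecting duct cells (adjusted p = 0.969), and -0.65 for Hemgn (adjusted p = 0.31). With slide row as a term, with the second row alone and with the replicate number as a block, 0 of the 6 passed. The 3 globin genes fell in DKD against sham, by 0.95 (adjusted p = 0.033), 0.94 (adjusted p = 0.0277) and 0.93 (adjusted p = 0.0281), and Alas2, Slc4a1 and Hemgn did not pass there, at -0.74, 0.09 and 0.60. The log2 of the summed erythroid level ran from 8.14 to 9.77 in enarodustat, 7.53 to 9.11 in DKD and 8.37 to 9.62 in sham kidneys, with medians of 9.15, 8.38 and 9.15. The ranges overlapped in part, and some DKD mice lay below all others. The part of these markers in the values of the 5 genes was not tested.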

How the data were processed

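Each scanner file holds 1 array. Its processed signals are intensity values, which Agilent Feature Extraction 12.1.1.1 had corrected for local background and spatial trend, per the file headers, with no scaling across arrays. The submitters' processing notes list Feature Extraction 11.5.1.1 and limma but not what each did. The deposited log2 values cover 31409 probes, among them those of Tnfsf9, Rgs11 and Mab21l3. Their scale was found by comparison: normexp (offset 50) on the median signals with quantile normalization came within 0.05 of all but 762 of 753816 deposited values (largest gap 0.367), so the columns, with medians of 7.543 to 7.559, are log2 values not centred per gene.

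Control spots and outlier marks were left out, and spots of 1 probe were averaged. Probes were named from their accessions through RefSeq (assembly GRCm38.p6), which named 32994 of 56605. No coordinates are given for genes, because the array was designed on a different build. A gene was represented by its brightest probe on average, and it was tested if 6 or more of the 24 arrays read that probe well above background. The number of arrays limits the precision. The 75th percentile signals, which set the scale, were 187 to 388.

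All 24 arrays entered 1 limma fit (R 4.3.3, limma 3.58.1) whose sole term was group. P-values are two-sided and adjusted by Benjamini-Hochberg over 17736 genes. Correlations used exact permutation over pairings, adjusted over 20 relations. The fit was tested on simulated data. Alternatives changed the background correction, normalization, probe filter, probe choice, slide and row terms, and left out each mouse. The members and the gene lists were chosen with earlier results of these data known. The named genes were the members, the passing genes of the HIF and partner lists (at most 6 of each, by size of change), set partners and HIF targets, and the 3 genes most correlated with each member over all arrays and over the enarodustat arrays. Marker genes, partner genes that passed only DKD against sham, and neighbours of the members were named after their values were seen. Replicate numbers were not taken to pair the samples. Same-numbered arrays of different groups had deviations with a median r of 0.097, from -0.358 to 0.282. Arrays with different numbers had a median of -0.024, from -0.463 to 0.543. The ranges overlap, so these values cannot decide whether the numbers pair mice.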

Additional observations from a re-analysis of the deposited data

How the results depend on the processing

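No difference between groups of the 5 genes changed its sign under any alternative run. The calls that Mab21l3 and Rgs11 rose in DKD against sham held under every alternative that used all slides, and ended within single slides of 3 DKD and 2 sham arrays. There 15, 0 and 9 genes passed DKD against sham on slides 1, 2 and 3 (2202, 1656 and 1616 at an unadjusted p under 0.05, limma), 0 of the 5 genes passed on each, Rgs11 was higher by 0.694, 1.12 and 1.23 and Mab21l3 by 2.419, 1.205 and 2.124. For enarodustat against DKD, 4, 3 and 0 genes passed on the single slides (1309, 1217 and 544 at an unadjusted p under 0.05), against 127 over all, and 2, 1 and 0 HIF targets rose, against 22 over all. The 127 became 83 with no filter on dim probes, 20 with slide row as a term and 11 in the second row alone, and the 22 HIF targets became 6 and 4 in the last 2 settings. The single-slide and single-row fits hold fewer arrays; beyond that, the cause was not tested.

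Leaving out 1 mouse at a time gave 71 to 128 genes and 13 to 26 HIF targets past the test for enarodustat against DKD. It gave 0.966 to 1.545 for Mgarp in DKD minus sham (adjusted p 0.00818 to 0.149) and -0.959 to -0.592 for Prnd (adjusted p 0.0221 to 0.236). Mgarp passed without sham replicate 4, DKD replicate 5 or enarodustat replicates 5 or 9, and Prnd without DKD replicate 6. The genes past enarodustat against DKD were fewest without enarodustat replicate 8, at 71, and were 82 to 84 without enarodustat replicates 4, 5 or 6 or DKD replicate 7. HIF targets numbered 13 without enarodustat replicate 4 and 14 without replicate 8. Mgarp in DKD minus sham, at 1.177, also passed with slide as a random block (adjusted p = 0.047), and Prnd, at -0.743, in the first slide row alone (adjusted p = 0.0421).

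The replicate numbers were not taken to pair the mice. With the number as a replicate block 66 genes passed enarodustat against DKD and 13 HIF targets rose. The calls on the 5 genes in DKD against sham stood as before.

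With normexp on the median signals and quantile normalization, and with normexp minus the 75th percentile (added after seeing the data), the enarodustat minus DKD difference was 1.494 and 1.497 for Mgarp, 0.612 and 0.608 for Tnfsf9, and 0.305 and 0.299 for Prnd. The enarodustat minus sham difference was 1.63 and 1.615 for Mgarp, 0.645 and 0.636 for Tnfsf9, 1.975 and 1.978 for Rgs11, 0.145 and 0.142 for Prnd, and 1.694 and 1.722 for Mab21l3. In the deposited values, enarodustat exceeded DKD by 0.617 for Tnfsf9 and exceeded sham by 0.652 for Tnfsf9, 1.974 for Rgs11 and 1.701 for Mab21l3. Normexp left 0 of 20 correlations past the test. With values centred within slides, r was 0.854 for Tnfsf9 with Prnd in DKD mice. No p is given for centred values, because their permutation also swapped mice across slides.

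By slide, enarodustat exceeded DKD by 2.718 for Mgarp and 1.556 for Tnfsf9 on slide 3, and exceeded sham by 5.639 for Mgarp and 2.7 for Tnfsf9 on slide 1 and by 1.636 for Tnfsf9 on slide 3. With slide row as a term enarodustat exceeded DKD by 1.673 for Rgs11, as in the second row alone, and exceeded sham by 2.856 for Rgs11 and 2.204 for Mab21l3. Normexp on the mean signals was not run, since the scanner files used here have no mean-signal column. Signals near background limit Mgarp in sham and Prnd in DKD kidneys, and dim signals limit Tnfsf9 in DKD and sham kidneys.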

Other observations

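The genes beside each of the 5 on its chromosome were looked up after the values were known, 2 on either side by RefSeq order. Of these 20 neighbours 18 were tested, and 0 passed enarodustat against DKD in limma, where 0.716% of all genes passed. Beside Mgarp, Elf2 and Ndufc1 had enarodustat minus DKD differences of -0.06 and -0.01, against 3.47 for Mgarp itself. Beside Prnd, the gene Prn, which RefSeq lists next to Prnp, had a difference of 0.02. Of the 18, 1 passed DKD against sham, where 11.6% of all genes passed. This was Arhgdig, which lies next to Rgs11 and rose by 1.29 ± 0.23 (SE, limma adjusted p = 0.000711). Its mean levels were -1.36 in enarodustat, -1.81 in DKD and -3.11 in sham kidneys, and its enarodustat minus DKD difference was 0.45 ± 0.21 (adjusted p = 0.419). Whether signal of the 2 neighbouring genes can be told apart by their probes was not tested.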
